A study of Mus musculus with 24 samples.

Results

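The genes that make, sense and move cholesterol were followed in the nerve roots of the postnatal mouse. The 30 genes were taken by name from the sterol pathway and fall into 3 classes: 20 enzymes of sterol synthesis, 5 regulators of the SREBP system and 5 genes of sterol transport, esterification and efflux. Of the 30 listed genes, 29 had a probe that passed the scanner's mark for signal above background on a whole group of 3 arrays. All 29 carried this mark on each of the 24 arrays, so the filter on low values removed none of them. No probe carried the name Acat2, so 19 enzymes were measured. The probe read for Acat3 also lists a transcript that may be of Acat2. The 29 genes stand among 23864 gene names and 36409 probes that passed the same filter. Where a gene had several probes, the brightest over the 24 arrays was used.

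RNA came from C57BL/6 mice of both sexes with no treatment or genetic change. Efferent nerve fibres (EN) were taken from the ventral roots and afferent nerve fibres (AN) from the dorsal roots at lumbar levels, at birth (P0) and at 1, 3 and 5 weeks of age (1 W, 3 W and 5 W). Each of the 8 groups had 3 single-colour Agilent arrays. The values are log2 expression, quantile normalised by the authors, and a difference of 1 is a doubling. The labels do not say whether the 3 arrays of a group held RNA of separate animals, and the methods describe the tissue of several animals collected in a tube for each group and also state 3 independent experiments for each, so how far the arrays are separate samples is unclear. The p-values measure the spread between these arrays, which may be technical. A root holds axons, Schwann cells, fibroblasts and other cells, and fewer cells of a type and less RNA per cell cannot be told apart.

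The roots carried the genes of peripheral myelin at every age, with all 14 myelin protein genes of a fixed list above background on every array. At P0 the efferent arrays also carried markers of other cells. All 8 sensory neuron markers were above background on the 3 P0 efferent arrays, where the log2 of their summed signal was 14.9 to 15.6, close to the 15.0 to 16.7 of the P0 afferent arrays. It was 10.5 to 12.1 in EN at 1 W, and it spanned 12.5 to 17.8 on the 3 afferent arrays at 3 W. The summed signal of 5 skeletal muscle markers was 15.8 to 17.0 in P0 EN and 12.3 to 13.3 in EN at 1 W. The third 3 W afferent array had the lowest mean correlation with its group (r = 0.961, next lowest 0.963), and calls of the 29 genes at 3 W that were lost without it are named beside the results.

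Myelin is rich in cholesterol, and Schwann cells make most of theirs on site. Synthesis runs from acetyl-CoA through mevalonate to squalene, which is closed to lanosterol and then trimmed to cholesterol. When sterol in the endoplasmic reticulum is low, SCAP carries the SREBP factors to the Golgi, where they are cut and freed to switch on these enzymes; INSIG proteins hold SCAP back when sterol is high.

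Stretches of promoter are shown for members on which the results turn, because SREBP and its partners NF-Y and Sp1 bind just before the start of many of these genes. Of the 30 listed genes, 25 had a RefSeq window (GRCm38.p6) of 250 bases before to 50 bases after the start. Fdps, Fdft1, Sqle, Stard4 and Npc1 had none, so their promoters were not searched. Each stretch below runs 5′ to 3′ on the gene's own strand and lies before the start. Capitals mark the CCAAT box, read on either strand as CCAAT or ATTGG, and the sterol regulatory element, in Insig1 only its shorter form. The stretches lie at chr13:119690102-119690322 (plus strand) for Hmgcs1, chr13:8885549-8885605 (plus) for Idi1, chr10:76531531-76531559 (plus) for Lss, chr8:64733617-64733750 (minus) for Msmo1, chr9:42264308-42264336 (minus) for Sc5d and chr5:28071184-28071411 (plus) for Insig1.
Hmgcs1: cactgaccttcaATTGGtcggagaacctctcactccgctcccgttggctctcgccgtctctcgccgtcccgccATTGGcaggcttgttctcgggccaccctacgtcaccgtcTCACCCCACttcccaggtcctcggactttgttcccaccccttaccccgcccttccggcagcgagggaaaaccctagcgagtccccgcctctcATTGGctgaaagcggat
Idi1: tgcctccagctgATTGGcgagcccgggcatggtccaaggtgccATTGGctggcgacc
Lss: ggtgatgctctgATTGGccgagctcgcat
Msmo1: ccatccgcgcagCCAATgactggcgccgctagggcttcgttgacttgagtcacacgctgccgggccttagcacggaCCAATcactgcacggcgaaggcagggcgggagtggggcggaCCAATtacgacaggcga
Sc5d: cgccggctgctgATTGGccggctgcctgc
Insig1: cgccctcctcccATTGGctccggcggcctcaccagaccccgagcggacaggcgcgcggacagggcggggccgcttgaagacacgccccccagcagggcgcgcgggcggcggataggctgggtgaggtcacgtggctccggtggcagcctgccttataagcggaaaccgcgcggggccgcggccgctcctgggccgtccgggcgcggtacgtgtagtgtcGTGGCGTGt

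The CCAAT box was in the window of 22 of the 25 members (88%), against 41.1% of 27025 genes with a window and 37.4% of all 32851 windows. The Sp1 box GGGCGG was in 23 of the 25 (92%), against 38.2% of genes. The element TCACNCCAC was found in 1 member, Hmgcs1, and in 1.44% of genes, and Hmgcs1 was also the member that held this element together with CCAAT (0.529% of genes). The shorter CACNCCAC was in 3 members, Acat2, Hmgcs1 and Insig1, against 7.12% of genes; in Insig1 it reads GTGGCGTG on the gene's strand. All 4 motifs were searched on both strands, and every TCACNCCAC match is also a CACNCCAC match. A match is a string of letters in the reference window and no measurement of binding.

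From P0 to 1 W, sterol synthesis genes rose together in both roots. In EN, 23 of the 29 genes rose, with a median log2 difference of 1.39, and in AN 22 rose, with a median of 1.53. Over all 36409 probes, 15.5% were called higher in EN and 12.3% in AN (limma, adjusted p below 0.05). None of the 29 was lower in either root, at an adjusted or an unadjusted p below 0.05. Of the 19 enzymes, 17 rose in EN (median 1.49) and 17 in AN (median 1.92). The 22 genes called in AN were also called in EN, and Scap was called in EN as well.

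Lss, lanosterol synthase, which closes the oxidised squalene chain into the first sterol, rose most in EN. Its log2 levels on the 3 arrays were 12.44, 12.46 and 12.55 in EN at P0 and 14.26, 14.14 and 14.89 at 1 W, a difference of 1.95 ± 0.25 SE, adjusted p = 2.35e-05. In AN they were 11.15, 11.45 and 11.39 at P0 and 13.65, 13.55 and 14.19 at 1 W, a difference of 2.47 ± 0.25 SE, adjusted p = 1.69e-06. Every 1 W array lay above every P0 array of its root. In mm9, the build of the array's design, the probes read for Lss, Mvd and Msmo1 lie at chr10:76016592-76016651 (plus strand), chr8:124957750-124957809 (minus) and chr8:67196982-67197041 (minus). Mvd, which makes isopentenyl diphosphate in the mevalonate arm, gave 10.97, 10.34 and 10.12 in AN at P0 and 13.09, 13.19 and 12.76 at 1 W, the largest rise there (2.54 ± 0.31 SE, adjusted p = 1.13e-05). In EN the same gene went from 11.96, 11.63 and 11.20 to 13.62, 13.68 and 13.27 (1.92 ± 0.31 SE, adjusted p = 0.000185). The groups did not overlap in either root.

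Msmo1, the methylsterol oxidase that starts removal of the 4-methyl groups after lanosterol, went in EN from 15.39, 14.77 and 14.82 to 17.02, 16.93 and 16.79 (1.92 ± 0.19 SE, adjusted p = 1.67e-06). In AN it went from 14.48, 13.96 and 14.05 to 16.47, 16.48 and 16.34, a log2 difference of 2.27. Its 1 W arrays were close together in each root and all above P0. Hmgcs1, the cytosolic HMG-CoA synthase, was the member with the element TCACNCCAC among those that had a promoter window. Its levels in AN were 15.42, 15.04 and 15.00 at P0 and 17.67, 17.64 and 17.41 at 1 W (2.42 ± 0.17 SE, adjusted p = 2.43e-08). In EN they were 16.34, 15.82 and 15.88 and 17.88, 17.94 and 17.76, a difference of 1.85 with no overlap.

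Enzymes of all 3 stretches of the route rose. In the mevalonate arm, 6 of 7 measured enzymes rose in both roots, by 0.83 (Mvk) to 1.92 (Mvd) in EN and by 1.17 to 2.54 for the same genes in AN. All 3 enzymes from squalene synthesis to lanosterol rose: Fdft1, which joins farnesyl units into squalene, by 1.68 in EN and 1.90 in AN, and Sqle, the squalene epoxidase, by 1.39 and 1.51. After lanosterol, 8 of 9 rose in both roots, with the 14-demethylase Cyp51 at 1.63 and 2.21 and the final reductase Dhcr7 at 1.28 and 1.54. The exceptions were Ggps1 and Lbr. Ggps1 makes geranylgeranyl diphosphate, which leaves the sterol route for protein prenylation, and its differences were −0.66 in EN (adjusted p = 0.407) and −0.62 in AN (adjusted p = 0.48). These are values of the brightest of its 6 tested probes, on which the EN arrays at 1 W spread from 11.08 to 12.71. No direction is given for Ggps1, as set out with its 3 W values below. Lbr, a nuclear envelope protein with the same sterol reductase activity as Tm7sf2, had differences of 0.12 and −0.22 (adjusted p = 0.488 and 0.229). Tm7sf2 itself rose by 1.84 and 2.22.

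**Figure D1:**
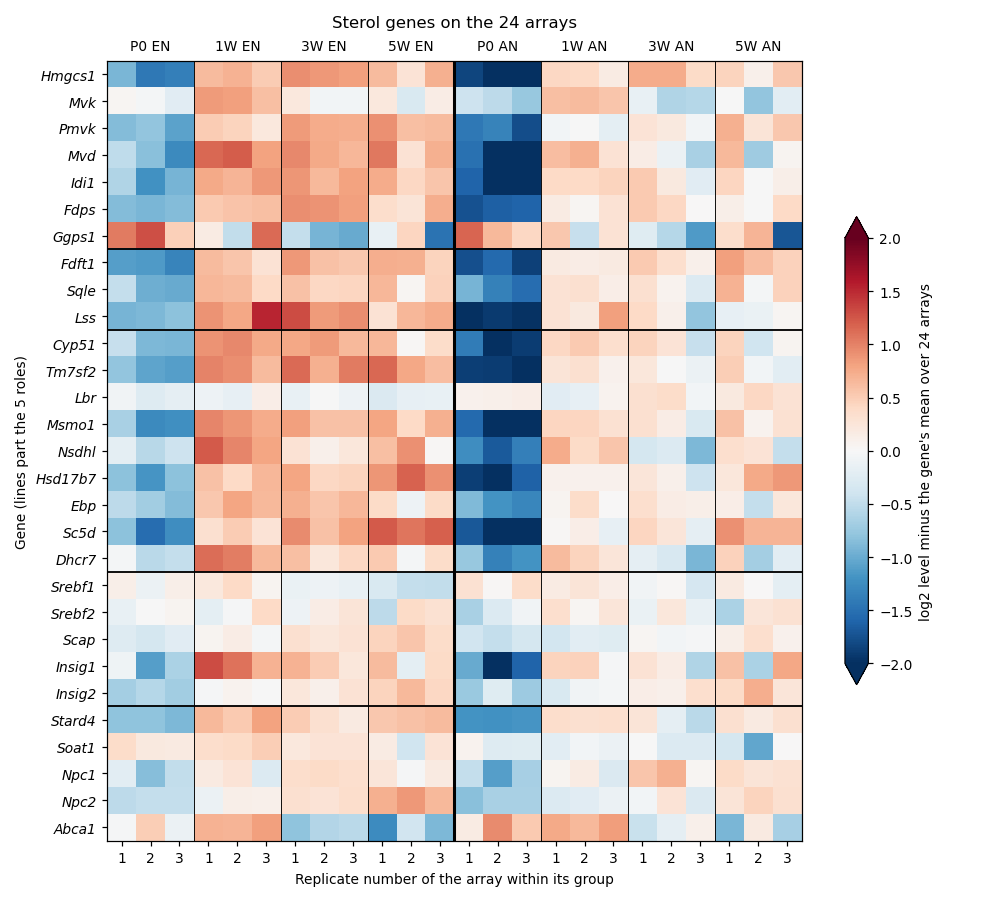
Log2 level of each of the 29 genes (rows, lines between the 5 roles) on each of the 24 arrays (columns, by root, age and replicate number), as the difference from the gene's mean over all arrays. Most enzyme rows are below their mean on the 6 P0 arrays, most so in AN, and above it on the 1 W arrays of EN, while the rows of Ggps1, Lbr, Srebf1, Soat1 and Abca1 run otherwise.

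The SREBP regulators rose less. Insig1, the feedback retention protein that is itself an SREBP target, was the exception: its levels were 10.33, 9.31 and 9.78 in EN at P0 and 11.72, 11.50 and 11.10 at 1 W (1.63 ± 0.38 SE, adjusted p = 0.00404), and 9.41, 8.05 and 8.82 and 10.86, 10.87 and 10.39 in AN (1.95 ± 0.38 SE, adjusted p = 0.00124). The 1 W arrays lay above the P0 arrays in each root, and the P0 arrays were spread over more than 1 log2 unit. Insig2 rose by 0.66 in EN and 0.43 in AN (adjusted p = 0.00225 and 0.0371), though its groups overlapped in AN. Scap rose by 0.33 in EN (adjusted p = 0.0134), and its difference in AN was 0.13 (adjusted p = 0.385). The genes of the factors themselves passed the test in neither root: Srebf2, the main sterol factor, differed by 0.09 and 0.53, and Srebf1 by 0.18 and −0.05. The median over the 5 regulators was 0.33 in EN and 0.43 in AN.

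Of the 5 transport genes, 3 rose in both roots. Stard4, a soluble carrier of cholesterol between membranes, went from 10.55, 10.55 and 10.46 to 12.01, 11.89 and 12.16 in EN. In AN it went from 10.16, 10.15 and 10.18 to 11.71, 11.69 and 11.69. The rises of 1.50 and 1.53 were near the median of the enzymes in EN and below it in AN. Its arrays did not overlap between the ages. Npc1 and Npc2, which together pass cholesterol out of the lysosome, rose by 0.58 and 0.53 in EN and by 0.72 and 0.51 in AN. For Npc1 the direction held for its brightest probe, but the mean over its probes was −0.12 in EN and −0.18 in AN. In each root 16 of 20 other probes of genes called here gave the same call, and in AN 1 probe, of Npc1, gave the opposite one. Soat1, which esterifies cholesterol for storage, had differences of 0.16 and 0.02, and Abca1, the exporter of cholesterol to lipoproteins, 0.62 and 0.20; neither passed the test in either root.

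Other cell types changed over the same week. All 6 macrophage markers rose in EN and 4 of 6 in AN, 5 of 6 cell cycle markers fell in EN and all 6 in AN, and 4 of 5 skeletal muscle markers fell in each root. Sensory neuron markers fell in EN, 8 of 8 with a median of −4.25, and in AN none of the 8 was called (median 0.39). The part of the other cell types in the rise was not tested. P0 and 1 W arrays shared slides 1 and 3, and within those slides the mean of the 19 enzymes rose by 1.21 and 1.45 in EN and by 1.54 and 1.76 in AN.

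At 3 W and 5 W the genes were still above their level at birth, and these comparisons share the P0 arrays with those above. At 3 W, 22 of 29 were higher and 2 lower than at P0 in EN, against 29.0% and 26.0% of all probes, and 21 were higher and 3 lower in AN, against 26.8% and 24.9%. At 5 W, 21 were higher and 2 lower in EN (28.2% and 26.0% of all probes), and 22 were higher and 1 lower in AN (26.4% and 24.2%). The medians were 1.17 and 1.31 at 3 W, and 1.15 and 1.47 at 5 W. Other probes of the called genes gave the same call less often here. At 3 W they were 12 of 25 in EN and 13 of 25 in AN, where 1 probe, of Ggps1, gave the opposite call. For 5 W the numbers were 12 of 20 and 14 of 20. At 3 W the largest rises over P0 were those of Hmgcs1 (2.11), Sc5d (1.97) and Tm7sf2 (1.95) in EN, and of Hmgcs1 (2.73), Sc5d (2.20) and Idi1 (2.12) in AN. At 5 W they were Sc5d (2.36), Hsd17b7 (1.93) and Tm7sf2 (1.83) in EN, and Sc5d (2.79), Hmgcs1 (2.46) and Hsd17b7 (2.45) in AN.

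Over the 19 enzymes, the mean of the centred log2 levels rose in EN from −0.70 ± 0.18 (SD, n = 3 arrays) on the P0 arrays to 0.66 ± 0.03 for the 1 W group, and was then 0.55 ± 0.12 (3 W) and 0.47 ± 0.11 (5 W). The afferent means by age were −1.43 ± 0.17, 0.27 ± 0.04, −0.00 ± 0.30 and 0.19 ± 0.20. The step from P0 to 1 W was the widest in both roots, and the spread between arrays was widest in AN at 3 W, where the arrays gave 0.26, 0.08 and −0.34. The highest mean fell at 1 W for 10 of the 19 enzymes in EN, at 3 W for 6 and at 5 W for 2, and the AN numbers were 9, 3 and 6. Ggps1 was highest at P0 in both.

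**Figure D2:**
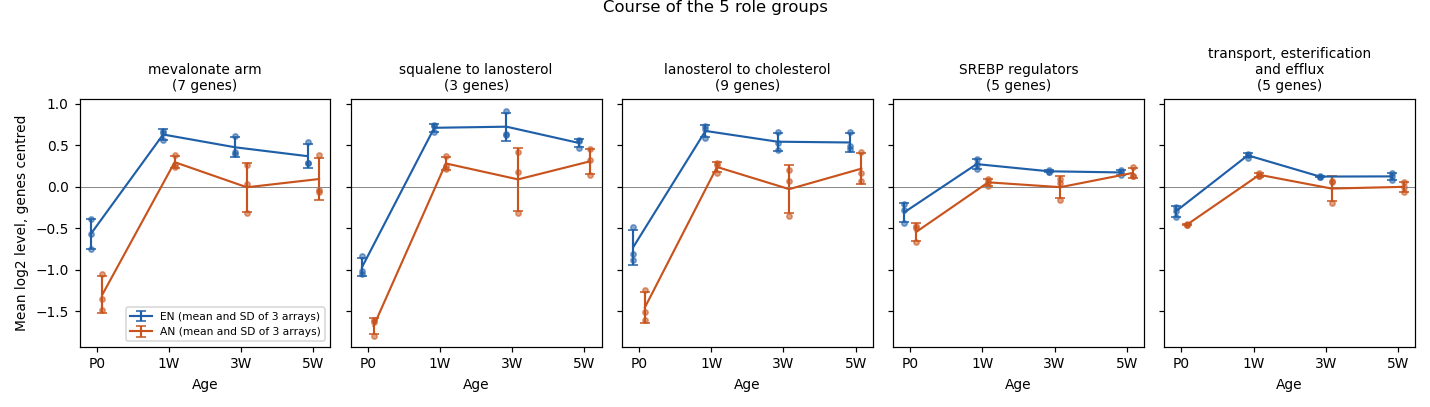
Mean log2 level of the genes of each of the 5 roles, each gene centred on its mean over the 24 arrays, against age; points are arrays, and lines and bars give the mean and SD of 3 arrays in EN and AN. The 3 panels of enzymes step up between P0 and 1 W with AN below EN, and the panels of regulators and transport genes move less.

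From 1 W to 3 W few of the genes changed. In EN 3 were lower and none higher (all probes: 14.2% lower, 13.2% higher; 5 members higher at an unadjusted p below 0.05), and in AN 5 were lower and 1 higher (15.3% and 14.6%). Without the third 3 W afferent array, 6 were called in EN, 1 higher and 5 lower, and 5 in AN, 2 higher and 3 lower. Nsdhl, Mvk and Abca1 were still called in AN without it, while Dhcr7, Stard4 and Scap had adjusted p of 0.0648, 0.081 and 0.0652. Nsdhl, the sterol dehydrogenase that acts with Msmo1 and Hsd17b7 in removing the 4-methyl groups, had AN levels of 12.93, 12.57 and 12.75 at 1 W and 11.84, 11.92 and 11.29 at 3 W (−1.07 ± 0.24 SE, adjusted p = 0.00254). In EN it had 13.42, 13.16 and 12.98 and 12.49, 12.29 and 12.42 (−0.79 ± 0.24 SE, adjusted p = 0.0193). The groups did not overlap, but all 3 W arrays share 1 slide, and with slide as a block the EN difference was 0.08.

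Mvk, the mevalonate kinase, fell from 15.11, 15.14 and 15.07 to 14.36, 13.90 and 13.94 in AN (−1.04 ± 0.18 SE, adjusted p = 0.000442) and from 15.36, 15.32 and 15.10 to 14.72, 14.45 and 14.45 in EN (−0.72 ± 0.18 SE, adjusted p = 0.00742). At 3 W it differed from P0 by 0.13 in AN and 0.11 in EN, with adjusted p of 0.568 and 0.633. Abca1 fell from 11.30, 11.29 and 11.42 to 9.80, 10.02 and 10.07 in EN (−1.37 ± 0.26 SE, adjusted p = 0.000887) and from 11.36, 11.26 and 11.43 to 10.15, 10.42 and 10.71 in AN (−0.92 ± 0.26 SE, adjusted p = 0.0133). No 3 W array reached the 1 W arrays of its root. The other AN falls were those of Dhcr7 (−0.91) and Stard4 (−0.49). Scap, the escort of the SREBP factors, rose in AN from 13.76, 13.92 and 13.89 to 14.16, 14.07 and 14.11, by 0.26 ± 0.09 SE, adjusted p = 0.0455.

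Between 3 W and 5 W none of the 29 passed the test in either root, where limma called 2.25% of all probes in EN and 3.67% in AN. At an unadjusted p below 0.05, 2 were higher and 3 lower in EN, and 7 were higher in AN; the lowest adjusted p was 0.0767 and 0.0613. Over the longer step from 1 W to 5 W, 4 were higher and 3 lower in EN (13.7% and 14.7% of all probes), and 8 were higher and 2 lower in AN (15.4% and 15.9%). With slide as a block the EN counts were 4 and 7. Of the other probes of genes called from 1 W to 5 W, 4 of 5 in EN and 5 of 9 in AN gave the same call.

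Sc5d, the desaturase that makes 7-dehydrocholesterol late in the route, rose most in both roots between 1 W and 5 W. Its levels were 13.98, 14.17 and 13.94 and then 14.89, 14.73 and 14.85 in EN (0.80 ± 0.19 SE, adjusted p = 0.00334), and 13.69, 13.80 and 13.49 and then 14.57, 14.34 and 14.34 in AN (0.76 ± 0.19 SE, adjusted p = 0.00453). All 5 W arrays lay above all 1 W arrays. Npc2, the soluble partner in lysosomal export, went from 14.25, 14.49 and 14.47 to 15.07, 15.23 and 15.02 in EN (0.71 ± 0.12 SE, adjusted p = 0.000231) and from 14.10, 14.14 and 14.26 to 14.62, 14.81 and 14.69 in AN (0.54 ± 0.12 SE, adjusted p = 0.00231). Insig2, the second SCAP retention protein, went from 10.94, 11.02 and 10.94 to 11.40, 11.61 and 11.37 in EN (0.49 ± 0.14 SE, adjusted p = 0.0135) and from 10.66, 10.89 and 10.91 to 11.35, 11.68 and 11.20 in AN (0.59 ± 0.14 SE, adjusted p = 0.00392). Both genes were higher on each 5 W array than on any 1 W array of their root. Pmvk, phosphomevalonate kinase, rose in AN from 14.87, 14.93 and 14.73 to 15.64, 15.20 and 15.48 (0.59 ± 0.15 SE, adjusted p = 0.00421). Its second 5 W array was the lowest of the group and still above 1 W.

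Abca1 and Mvk fell over the same interval. Abca1 was 9.35, 10.23 and 9.71 in EN and 9.68, 10.78 and 9.94 in AN at 5 W, differing from 1 W by −1.57 ± 0.26 SE, adjusted p = 0.000166 in EN and by −1.21 ± 0.26 SE, adjusted p = 0.00165 in AN. The second 5 W array was the highest in each root and still below 1 W. Mvk was 14.72, 14.20 and 14.66 and 14.50, 13.72 and 14.30 at 5 W, a difference from 1 W of −0.73 in EN and −0.93 in AN. Srebf1, whose protein drives mostly fatty acid genes, fell in EN from 14.10, 14.28 and 13.94 to 13.58, 13.41 and 13.40 (−0.64 ± 0.13 SE, adjusted p = 0.00109), and its 5 W levels in AN were 14.07, 13.89 and 13.69 (difference −0.19, adjusted p = 0.304). The EN arrays did not overlap and the AN arrays did.

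The genes lower than at P0 were Ggps1 and Abca1 at 3 W in both roots with Srebf1 in AN, and Abca1 at 5 W in both with Srebf1 in EN. Abca1 differed from P0 by −0.75 and −0.95 in EN and by −0.72 and −1.01 in AN. Srebf1 differed by −0.36 in AN at 3 W and by −0.46 in EN at 5 W. Without the third 3 W afferent array 22 genes were higher and 1 lower in AN at 3 W, and neither Srebf1 (adjusted p = 0.132) nor Ggps1 (0.134) was called. Ggps1 had 12.61, 12.86 and 12.04 at P0 and 11.09, 10.65 and 10.56 at 3 W in EN (−1.74 ± 0.56 SE, adjusted p = 0.0133), and 12.73, 12.22 and 11.99 and 11.34, 11.00 and 10.44 in AN (−1.39 ± 0.56 SE, adjusted p = 0.0435). The third arrays of the 5 W groups, on the slide of the 3 W arrays, gave 10.10 and 9.86, while the other 4 arrays lay between 11.42 and 12.26. With slide as a block the 3 W differences turned to 0.60 in EN and 0.94 in AN, so no direction is given for this gene.

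**Figure D3:**
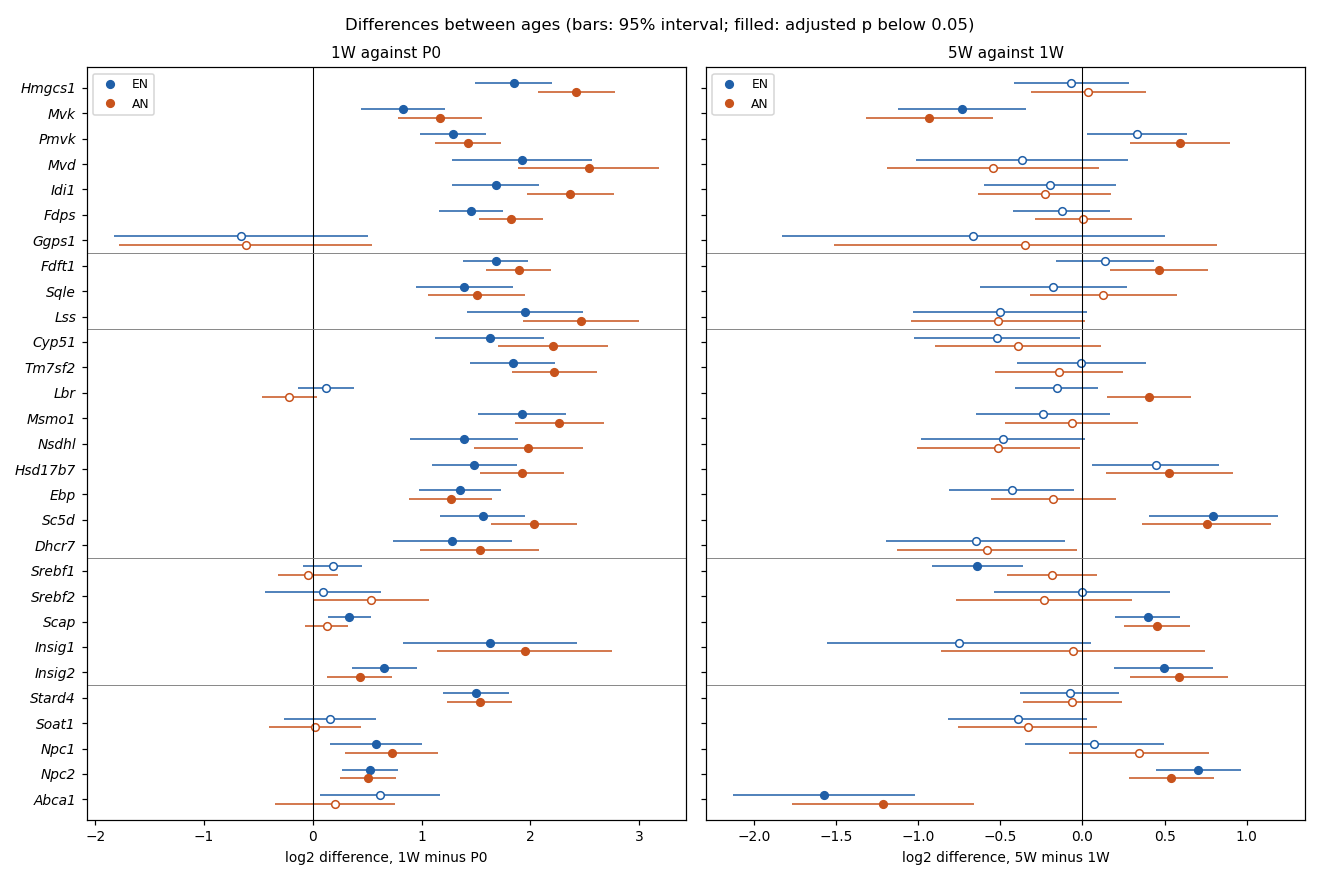
Log2 difference of each of the 29 genes between 1 W and P0 (left) and between 5 W and 1 W (right) in EN and AN; bars are 95% intervals of the limma fit, and filled points have an adjusted p below 0.05. At 1 W 17 of the 19 enzymes lie to the right of 0 with filled points in both roots, and from 1 W to 5 W most points are open and lie on both sides of 0.

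Between the roots, the sterol enzymes were lower in AN than in EN. In the fit with 8 group means, AN against EN had 0 genes higher and 8 lower at P0, when 0.739% of all probes were called in either direction; no member was called at 1 W (4.00% of all probes), 4 were lower at 3 W (5.89%), and 1 was higher and 1 lower at 5 W (6.76%). At 1 W, 11 were lower at an unadjusted p below 0.05, and the lowest adjusted p was 0.0589. The medians over the 29 genes were −0.54, −0.35, −0.47 and −0.27 from P0 to 5 W. All genes called lower in this fit were enzymes of synthesis. Of the other probes of called genes, 3 of 8 gave the same call at P0, 4 of 4 at 3 W and 1 of 1 at 5 W, with no opposite call. The P0 count of 8 was 0 without the second P0 afferent or the first P0 efferent array, 1 without the third P0 efferent array, 2 without the third P0 afferent array, and 11 without the third 3 W or the second 5 W afferent array. The 3 W count was 1 without the third afferent or the first efferent array of that age and 10 without the first afferent one. The 5 W count of 2 was 0 without the second 5 W afferent or the first 5 W efferent array, and 4 without the third 3 W afferent array.

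An afferent and an efferent array with the same number at one age lay on the same slide and deviated together, so the roots were also compared in pairs. The slide does not define the pairs at 3 W, where all arrays lay on 1 slide, nor for the P0 arrays numbered 2 and 3. There the pairs rest on the replicate number. At 3 W the deviations of paired arrays correlated weakly (r = 0.18, 0.11 and 0.21). Across ages, where arrays were not paired, r ran from −0.35 to 0.29. In pairs, 1 gene was higher and 19 were lower in AN at P0 (1.64% and 2.21% of all probes), and 15 were lower at 1 W with none higher (5.67% lower, 5.14% higher). At 3 W 2 were higher and 22 lower (8.37% and 12.8%), and at 5 W 3 were higher and 14 lower (10.7% and 12.9%). Regulators and transport genes were among those lower in pairs: Insig1 and Soat1 at P0, and Scap, Insig1 and Soat1 at 1 W. At 3 W they were Scap, Insig1, Stard4, Soat1 and Npc2, and at 5 W Scap, Stard4, Soat1 and Npc2. The Soat1 differences from P0 to 5 W were −0.395, −0.531, −0.439 and −0.469. Of the 19 enzymes, 17, 12, 17 and 10 were lower from P0 to 5 W. These counts move with single pairs: the P0 count of called genes was 13 without the second or the third P0 pair, and the 1 W count was 1, 4 and 5 without the first, the second and the third 1 W pair. The 5 W count was 9, 3 and 9 without the first, the second and the third 5 W pair, and it was 23 without the third 3 W pair. Without that pair the 3 W count was 18, 2 higher and 16 lower. In every one of the 12 pairs the enzyme mean was lower in AN. The differences were −0.73, −0.72 and −0.72 at P0, −0.39, −0.38 and −0.41 at 1 W, −0.43, −0.39 and −0.83 at 3 W, and −0.19, −0.36 and −0.31 at 5 W; the third 3 W pair holds the afferent array that correlated least with its group.

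Lss showed the widest gap between the roots at P0. With the EN levels given above at 12.44, 12.46 and 12.55 and the AN levels at 11.15, 11.45 and 11.39, it was lower in AN (difference −1.15 ± 0.25 SE, adjusted p = 0.04), and every AN array was below every EN array. At 3 W it was 14.66, 14.22 and 14.30 in EN and 13.76, 13.47 and 12.57 in AN (−1.13 ± 0.25 SE, adjusted p = 0.0123), with the third AN array the lowest; without that array the difference was −0.78 (adjusted p = 0.0628). Tm7sf2, the reductase of the sterol C14 double bond, was 13.93, 13.67 and 13.61 in EN and 12.84, 12.83 and 12.48 in AN at P0 (−1.02 ± 0.19 SE, adjusted p = 0.0138). It was the gene called at P0, 3 W and 5 W alike, at 3 W with 15.86, 15.43 and 15.77 against 14.95, 14.72 and 14.61 (−0.93 ± 0.19 SE, adjusted p = 0.00601). At 5 W the levels were 15.86, 15.49 and 15.34 and 15.21, 14.66 and 14.52 (−0.77 ± 0.19 SE, adjusted p = 0.0166). The groups did not overlap at any of these ages.

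Idi1, which converts isopentenyl into dimethylallyl diphosphate, was 14.56, 13.94 and 14.22 in EN and 13.55, 12.95 and 13.10 in AN at P0 (−1.04 ± 0.19 SE, adjusted p = 0.0147). Fdps, which builds farnesyl diphosphate, was 15.09, 15.04 and 15.09 and 14.21, 14.33 and 14.37 (−0.77 ± 0.14 SE, adjusted p = 0.0137), and at 3 W 16.90, 16.86 and 16.78 and 16.49, 16.38 and 15.98 (−0.56 ± 0.14 SE, adjusted p = 0.0224). Without the third 3 W afferent array the 3 W difference of Fdps was −0.41 (adjusted p = 0.116). Both were lower on every AN array than on any EN array of that age. Hmgcs1 at P0, with the levels printed above, was lower in AN (difference −0.86 ± 0.17 SE, adjusted p = 0.0188). Pmvk was 15.78, 15.68 and 15.65 in EN and 15.20, 15.13 and 14.87 in AN at 3 W (difference −0.64 ± 0.15 SE, adjusted p = 0.0135), with no overlap, and without the same array the difference was −0.54 (adjusted p = 0.0665). Tm7sf2 was the gene still called at 3 W without it (−0.85, adjusted p = 0.0308).

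Among the late enzymes, Nsdhl at P0 was 11.99, 11.63 and 11.78 in EN and 10.95, 10.51 and 10.83 in AN (−1.03 ± 0.24 SE, adjusted p = 0.0497). Hsd17b7, the sterol ketone reductase, was 12.42, 12.07 and 12.42 and 11.36, 11.24 and 11.62 (−0.90 ± 0.18 SE, adjusted p = 0.0272). Sc5d was 12.84, 12.14 and 12.42 and 11.97, 11.36 and 11.55 (−0.84 ± 0.19 SE, adjusted p = 0.0426). None of the 3 overlapped between the roots, though for Sc5d the first AN array came near the second EN array. Lbr went the other way at 5 W, with 13.04, 13.17 and 13.18 in EN and 13.53, 13.75 and 13.62 in AN (0.50 ± 0.12 SE, adjusted p = 0.0169), and it was higher in AN in pairs at 3 W too (0.30, adjusted p = 0.0371). In pairs Abca1 was higher in AN at P0, 3 W and 5 W, by 0.43, 0.46 and 0.37, and Srebf1 at 5 W by 0.42 (adjusted p = 0.00612).

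**Figure D4:**
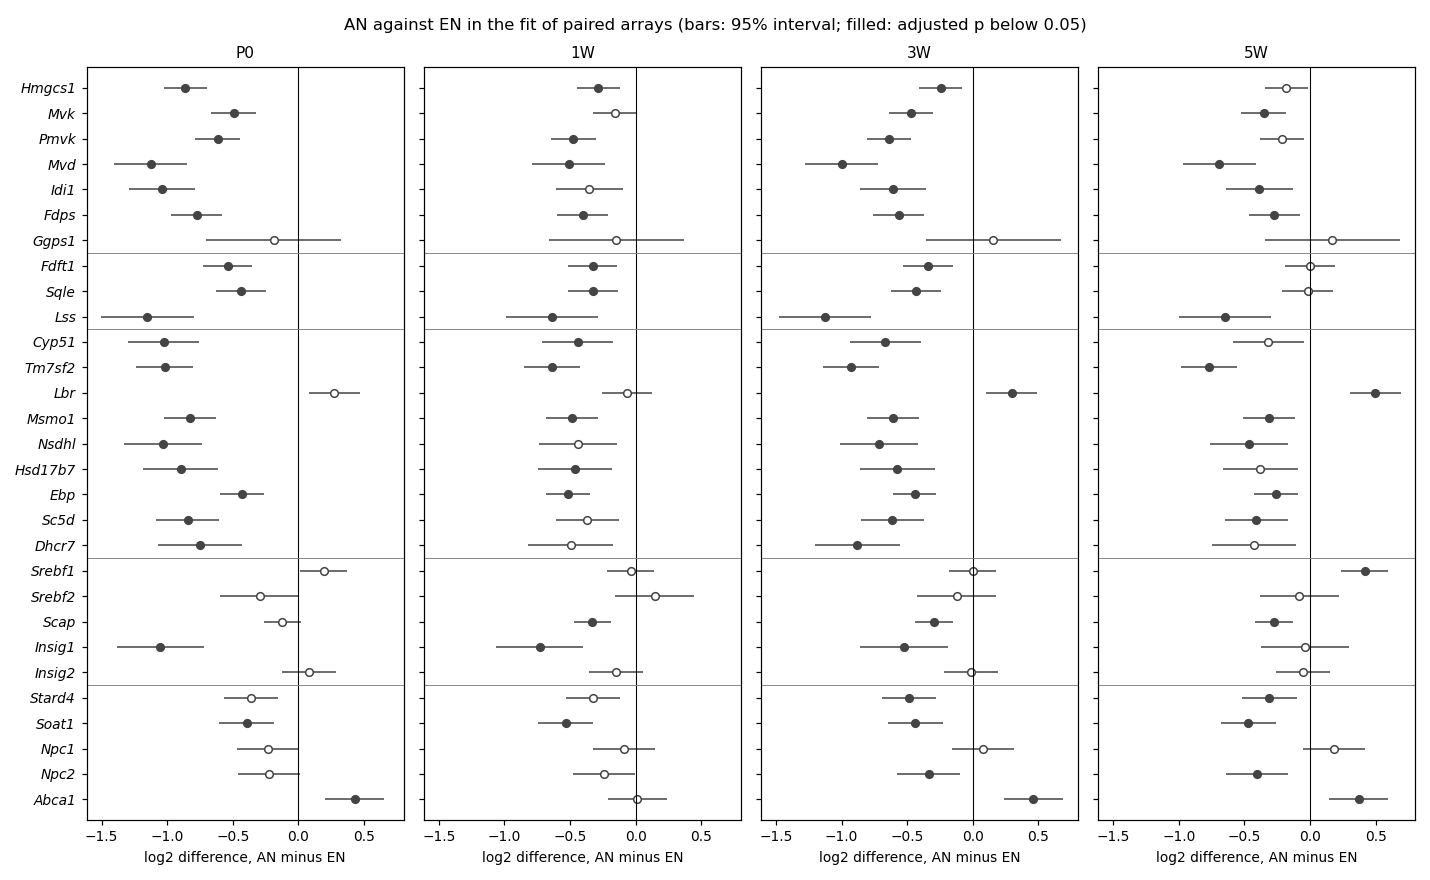
AN minus EN log2 difference of each of the 29 genes (1 panel per age) in the fit of paired arrays; bars are 95% intervals, and filled points have an adjusted p below 0.05. Most enzymes lie left of 0 at every age and nearer to it at 5 W than at P0, while Lbr and Abca1 lie right of 0 at 3 W and 5 W.

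Other gene groups differed between the roots in the same arrays. At P0, 6 of 14 myelin protein genes were lower in AN (median −0.90), 1 of 6 cell cycle markers and 1 of 7 immature Schwann cell markers were higher, and no sensory neuron, macrophage or muscle marker was called. At 1 W all 8 sensory neuron markers were higher in AN (median 4.96) with 5 of 7 immature Schwann cell markers, and 5 of these 7 were higher at 3 W and at 5 W as well. The part of these cells in the gap between the roots was not tested. The gap itself was compared across ages with P0: with 8 group means, no member passed at 1 W, 3 W or 5 W, when 0.0632%, 0.615% and 1.14% of all probes did, and 2, 1 and 4 members had an unadjusted p below 0.05. The lowest adjusted p was 0.498, 0.365 and 0.22. In pairs, 1, 1 and 7 members had a gap that was narrower than at P0, against 0.736%, 4.12% and 6.77% of all probes called in either direction, and at 5 W leaving out any 1 of the P0 or 5 W pairs reduced the 7 to 1 or 2, any 1 of the 1 W pairs to 3.

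The enzymes followed each other closely over the 24 arrays, which share the age groups, so these correlations are descriptions. Across the 171 pairs of enzymes the median r was 0.871, and it ranged from −0.609 to 0.989. Msmo1 (r = 0.995) and Idi1 (0.992) lay nearest to the mean of the 19 enzymes, of which each is a part, followed among members by Tm7sf2 (0.981). Ggps1 (−0.43), Abca1 (−0.34), Srebf1 (−0.28) and Lbr (−0.14) were at the other end. Of the 23864 gene names, 223 had an r above 0.9 with the enzyme mean, and the median was 0.0533. Outside the members the gene most like it was Acss2, which makes acetyl-CoA from acetate (r = 0.986). It was followed by a probe with no gene symbol, the succinate receptor gene Sucnr1 (0.979) and Aacs, which activates acetoacetate (0.976). Next came Pank3, a pantothenate kinase of coenzyme A synthesis (0.975), Tnfaip3 (0.968) and Acat3 (0.968). The Acat3 probe also lists a transcript that may be of Acat2, so the value may be of either gene. Ppm1l (0.967), a second probe with no symbol (0.967) and Hacl1 (0.966) completed the first 10.

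Genes of the pathway outside the 30 were taken from a list of 13 further sterol synthesis and SREBP genes, of which 8 rose in EN and 6 in AN from P0 to 1 W, with 1 lower in AN; the medians were 0.34 and 0.27. Acss2 rose by 1.98 and 2.38 and was the gene of the list lower in AN at P0 (−1.17, adjusted p = 0.00846). The E3 ligase gene Rnf139 was the one that fell in AN (−0.50).

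A second list, of 18 genes of sterol uptake, transport and the oxysterol-sensing LXR receptors, moved in both steps. From P0 to 1 W, 8 rose in EN, and 4 rose and 1 fell in AN (15.5% and 12.3% of all probes were higher). From 1 W to 3 W, 8 rose and 1 fell in EN, when 13.2% of all probes were higher and 14.2% lower. In AN 10 rose and 1 fell, when 14.6% were higher and 15.3% lower. The 3 and 5 of the 29 members that fell in this interval stand beside the same shares. All 3 W arrays lay on 1 slide, which held no 1 W array. Nr1h3, which encodes LXR alpha, rose between 1 W and 3 W by 1.50 in EN and 1.75 in AN (adjusted p = 0.00011 and 2.32e-05). The exporter gene Abcg1 rose by 1.56 and 1.31, and the lysosomal lipase gene Lipa by 1.22 and 1.25. Scarb1, the HDL receptor gene, fell by 1.04 and 1.05. Abca1, a textbook LXR target like Abcg1, fell in this interval as given above. Of the 6 macrophage markers, 1 rose and 1 fell in EN and 1 rose in AN over this interval, and their part in these changes was not tested.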

How the data were processed

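Expression was measured on 24 single-colour Agilent mouse arrays, 3 for each of 8 groups given by nerve root and age on the labels. Per spot, the authors deposited intensity values and other marks (such as signal well above background) from Feature Extraction 10.7.1.1. They also deposited log2 values after quantile normalisation over the arrays. The log2 table was used. Each of its columns correlated best with its own array's deposited intensity after log2 and quantile normalisation of the intensities (r = 1, at most 0.991 with another array). The deposited marks decided which probes were tested: a probe had to be well above background throughout at least 1 group of 3 arrays, as were 36409 of 56605 gene probes. Array medians of the signal lay between 45.4 and 191, against local background medians between 23 and 46, and the number of arrays limits the precision.

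The 8 group means were fitted with limma 3.58.1 in R 4.3.3, with moderated variances and Benjamini-Hochberg adjustment over all 36409 probes of each comparison. A gene was called at an adjusted p below 0.05, whatever its fold change. Figures and counts were made in Python 3.11.15, and the fit was tested on simulated data. The gene set, the lists beside it and the tests were chosen with earlier results of these data known. Genes were named by their calls in the fit with 8 group means. They were the called members with the 3 largest rises and the 3 largest falls of each comparison, and members called between the roots. Members called against the majority of their role, and the 10 other genes most correlated with the mean of the enzymes, were also named. Members called between the roots only in pairs are named in part.

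Same-numbered AN and EN arrays of one age lay on the same slide by the file headers, and their deviations from the group means correlated in all 12 pairs (r = 0.107 to 0.646), so the roots were also fitted in pairs. At 3 W, and for the P0 arrays numbered 2 and 3, several pairs shared a slide, so only the replicate number set them apart. Numbers did not pair arrays across ages. Promoter windows came from RefSeq. The alternatives were the scanner signal with other normalisations and background corrections, other filters, the mean of a gene's probes, blocks for replicate, slide and scan, the groups compared alone, the thresholds of the study's methods (an unadjusted p with a fold limit) and leaving out each array. Some genes counted in the lists are not reported here by name.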

Additional observations from a re-analysis of the deposited data

Results flagged for a closer look

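In the fit of paired arrays, the gap between AN and EN differed between ages for 7 genes by the test of the difference itself (limma, adjusted over 36409 probes). For each of them AN was lower than EN at P0, and the AN minus EN difference was less negative later. For Hmgcs1 the change from P0 was 0.578 at 1 W (adjusted p = 0.0435), 0.617 at 3 W (adjusted p = 0.014) and 0.681 at 5 W (adjusted p = 0.00723). At 5 W the change was 0.656 for Idi1, 0.503 for Fdps, 0.542 for Fdft1, 0.71 for Cyp51, 0.519 for Msmo1 and 1.01 for Insig1, with adjusted p between 0.0232 and 0.0399. In the fit with 8 group means none of the 7 passed, and the lowest adjusted p of any member was 0.22. The Hmgcs1 call at 1 W was lost without any 1 of the P0, 1 W or 5 W pairs or the first 3 W pair, and the call at 3 W without the third P0 pair. Without the third 3 W pair 7 members passed at 1 W, 4 at 3 W and 13 at 5 W. At 5 W, 3 passed without any 1 of the 1 W pairs and 1 or 2 without any 1 of the P0 pairs, and the same held for the 5 W pairs. The 3 comparisons share the P0 arrays.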

How the results depend on the processing

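The rise of the 29 genes from P0 to 1 W stayed within 1.5 times its count under every alternative, as did the counts of the later ages against P0. The comparisons between the roots and the later steps moved. With the replicate block (a block for the replicate number over all ages), the called genes between AN and EN were 13, 2, 12 and 4 from P0 to 5 W, against 8, 0, 4 and 2; EN 3 W against 1 W had 6, and AN 5 W against 3 W 1. With the replicate block within time point, the paired fit, they were 20, 15, 24 and 17, and the change of the gap since P0 was called for 1, 1 and 7 at 1 W, 3 W and 5 W. Slide as a block gave 15, 7, 18 and 8, 11 in EN 5 W against 1 W, and 1 each for the change of the gap at 3 W and 5 W. Scan as a block gave 15, 7, 17 and 7, 13 in EN 5 W against 1 W, and 1 and 1 for the change of the gap. Fitting only the groups compared gave 0, 1, 1 and 0 between the roots, 6 in EN 3 W against 1 W and 4 in AN 5 W against 1 W.

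Scaling to the 75th percentile gave 5 at P0 and 8 at 3 W between the roots, and testing all probes gave 5 at P0. Normexp background correction gave 1, 8 and 5 at 1 W, 3 W and 5 W, with 1 in EN and 2 in AN for 5 W against 3 W. The mean of a gene's probes gave 4 at 1 W and 9 at 3 W, 5 in EN 3 W against 1 W and 1 in AN 5 W against 3 W. Probes above background on all 24 arrays gave 5 in EN 3 W against 1 W and 1 in AN 5 W against 3 W. The methods' thresholds gave 1 and 0 between the roots at 3 W and 5 W, 1 in EN and 2 in AN for 3 W against 1 W, and 1 in each root for 5 W against 1 W. The cause of these moves was not tested.

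Leaving out 1 array at a time, the counts between the roots ranged from 0 to 11 at P0, 0 to 1 at 1 W, 1 to 10 at 3 W and 0 to 4 at 5 W. They ranged from 2 to 6 in EN 3 W against 1 W, 0 to 1 in EN 5 W against 3 W and 0 to 2 in AN 5 W against 3 W. Leaving out 1 pair at a time, an alternative chosen after seeing the data, the paired counts ranged from 13 to 22 at P0, 1 to 20 at 1 W and 3 to 23 at 5 W, and those of the change of the gap from 0 to 7, 0 to 4 and 1 to 13. The single genes that turned their sign were Npc1 with the mean of its probes (−0.12 for EN and −0.18 for AN, 1 W against P0) and 3 others with a block. Ggps1 at 3 W against P0 became 0.60 (slide) and 0.23 (scan) for EN, and 0.94 and 0.58 for AN; its 3 W against 1 W difference in AN was 1.32 with slide. Soat1 at 3 W against P0 in EN was −0.66 and −0.58, and Nsdhl at 3 W against 1 W in EN was 0.0782 with slide. All 3 W arrays lay on 1 slide, shared with the third 5 W arrays.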

Other observations

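Fatty acid genes that SREBP-1 is known to drive moved with the sterol genes. From P0 to 1 W, 7 of 10 rose and 1 fell in EN (median 0.92), and 8 rose and 1 fell in AN (median 0.86). Scd1, the stearoyl-CoA desaturase, rose by 1.54 in EN and 1.76 in AN, and Elovl6, a fatty acid elongase, by 1.26 and 1.75. Elovl5 was the gene of this list that fell, by 0.40 in EN and 0.37 in AN. At P0, 2 of the 10 were lower in AN than in EN, Scd1 (−0.77, adjusted p = 0.0389) and Elovl6 (−0.95, adjusted p = 0.0147).

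Of 14 genes of peripheral myelin proteins, 12 rose in EN and 13 in AN from P0 to 1 W (medians 1.16 and 1.73). Drp2, a dystrophin-related protein of the Schwann cell membrane, rose most in both, by 3.14 and 4.10, and Mbp rose by 2.48 and 3.07. At P0 the genes lower in AN were Pmp2 (−1.89), Drp2 (−1.66), Ncmap (−1.26), Mbp (−1.25), Gjb1 (−1.24) and Pmp22 (−0.60). Pmp2, a fatty acid binding protein of myelin, remained lower in AN at 3 W (−1.86) and 5 W (−1.77), while Cnp was higher in AN at 5 W, by 0.81.

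Of 11 genes that use isoprenoids of the mevalonate arm for other ends, 4 rose and 1 fell in each root from P0 to 1 W. Fntb, the beta subunit of protein farnesyltransferase, rose by 2.88 in EN and 2.24 in AN from P0 to 5 W and was lower in AN than in EN at 3 W (−1.22) and 5 W (−1.24). Pdss1, which makes the side chain of coenzyme Q, fell by 1.26 in EN and 1.14 in AN from P0 to 5 W.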
